A study of Mus musculus with 6 samples.

Results

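Calcium/calmodulin-dependent protein kinases and neurogranin were examined in the hippocampus of mice lacking the NF-κB inhibitor IκBα in the brain. The 8 genes considered were the CaMKII subunits Camk2a, Camk2b, Camk2d and Camk2g, the kinase Camk4, the upstream kinases Camkk1 and Camkk2, and neurogranin, Nrgn. Every probe set whose only annotated gene symbol was one of these names was taken. This gave 26 of 45037 non-control probe sets, and 7 of the 8 genes had at least 1. No probe set is named for Camkk1 here, so it has no value. Camk2a had 6 probe sets, Camk2d 7, Camk4 5, Camkk2 4, Camk2g 2, and Camk2b and Nrgn 1 each.

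The IκBα-deficient animals had the genotype IκBαfl/-;Nestin-Cre, meaning a floxed allele, a null allele and the recombinase. Their littermate controls were IκBαfl/-, with the same alleles and no recombinase, so they already carried 1 null allele. Mice were 2 to 3 months old, and hippocampal total RNA from 3 animals of each genotype was hybridised to Affymetrix arrays, 1 array per animal. Nestin-Cre acts in the neural lineage, which leaves the floxed allele in cells of other origin such as microglia and blood vessels. Values are RMA log2 levels, a relative scale on which a difference of 1 is a doubling, and levels of different probe sets are not set against each other. All differences are IκBα-deficient minus control with the standard error (SE) or 95% interval of the limma fit. Adjusted p-values are Benjamini-Hochberg values from limma over all 45037 probe sets, with a threshold of 0.05.

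As background, calcium that enters a neuron through NMDA receptors or calcium channels binds calmodulin, and the complex switches on these kinases. CaMKII is a large ring of alpha, beta, gamma and delta subunits that phosphorylates itself and stays active after the calcium signal has passed, a step needed for long-term potentiation in the hippocampus. CaMKK phosphorylates and activates CaMKI and CaMKIV, and CaMKIV acts in the nucleus on CREB. Neurogranin holds calcium-free calmodulin near the postsynaptic membrane of forebrain neurons through its IQ motif.

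The deleted gene, Nfkbia, separated the groups in all its probe sets but 1420089_at, where they overlapped and the difference was -0.35 ± 0.15 (SE). Nfkbia probe set 1438157_s_at stood at 7.04, 7.07 and 6.86 in IκBα-deficient animals, against 8.81, 8.71 and 8.78 in controls, a fall of 3.42-fold with an adjusted p of 0.00183 (limma). It was 1 of the 3 probe sets that passed the threshold among all 45037, and all 3 were among the 5 Nfkbia probe sets. The brightest of the 5, 1420088_at, differed by -1.40 but did not pass (adjusted p = 0.0629, limma). The labels do not say which part of Nfkbia was removed, and a probe outside it would not check the deletion. Hippocampal markers were measured, such as the dentate gyrus list at 8.53 to 8.66 in IκBα-deficient arrays and 8.67 to 8.92 in control arrays, with 5 of 5 genes lower. The excitatory neuron list had mean levels of 10.58 to 10.67 in IκBα-deficient arrays and 10.54 to 10.58 in control arrays. IκBα-deficient array 2 stood apart in RNA quality, where the 3′ control probe sets exceeded the 5′ ones by 2.02 on the log2 scale, beside 0.56 to 0.73 on the other 5 arrays. In bulk tissue, fewer cells of a type and less RNA per cell cannot be told apart.

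Because IκBα restrains NF-κB, the promoter sequences of 2 members with a single probe set each are shown beside that of Nfkbia, a textbook NF-κB target. Each is the stretch of 250 bases before the RefSeq start site, on build GRCm38.p6, minus strand, written 5′ to 3′. Capitals in the Nfkbia line mark matches to the loose κB motif GGGNNNNNCC, and those in the Nrgn line a CCAAT box read on the opposite strand.
Nrgn, chr9:37552746-37552995: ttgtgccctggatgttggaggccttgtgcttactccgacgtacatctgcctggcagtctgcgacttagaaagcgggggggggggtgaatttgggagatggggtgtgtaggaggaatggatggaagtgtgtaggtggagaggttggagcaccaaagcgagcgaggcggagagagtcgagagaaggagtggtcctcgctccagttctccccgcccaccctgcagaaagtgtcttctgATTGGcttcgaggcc
Camk2b, chr11:6065749-6065998: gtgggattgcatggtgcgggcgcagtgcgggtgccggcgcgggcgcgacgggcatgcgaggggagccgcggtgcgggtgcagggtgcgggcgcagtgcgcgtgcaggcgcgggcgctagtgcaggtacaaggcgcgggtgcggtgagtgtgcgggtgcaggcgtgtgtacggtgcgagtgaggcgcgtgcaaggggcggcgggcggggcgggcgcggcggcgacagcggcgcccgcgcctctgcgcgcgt
Nfkbia, chr12:55492648-55492897: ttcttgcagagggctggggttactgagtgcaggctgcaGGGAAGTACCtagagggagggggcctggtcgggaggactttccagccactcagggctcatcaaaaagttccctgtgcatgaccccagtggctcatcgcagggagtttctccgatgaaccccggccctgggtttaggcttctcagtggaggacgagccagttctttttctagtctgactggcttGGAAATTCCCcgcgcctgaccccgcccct

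Searched on both strands, GGGNNNNNCC was in 45.8% of all 32851 promoter windows of this length. It matched 2 stretches in Nfkbia, GGGAAGTACC and GGAAATTCCC, whose 5′ ends lie 212 and 29 bases before the start. Of the 5 members with a promoter entry (Camk2b, Camk2d, Camkk1, Camkk2 and Nrgn), 4 held no match. Camkk1 held 3 matches, of which GGGCCCCTCC and GGCCCCTCCC overlap. The cAMP response element TGACGTCA, the site that CREB binds, was in 1.55% of all windows and in 0 of these 5. The CCAAT motif was in 33.8% of all windows, Nrgn and Camkk1 among them. A match is a description of letters in the window, and a missing match says only that these letters are not there.

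None of the 26 probe sets differed between genotypes in the test across all probe sets. With limma and the 0.05 threshold, 0 were called higher and 0 lower, and every adjusted p was 0.9999, where 0.00666% of all probe sets were called, each of them lower. At an unadjusted p under 0.05 the members also gave 0, against 3.34% of all probe sets (2.15% higher and 1.19% lower). The groups overlapped for each of the 26, while 8.45% of all probe sets had groups that did not overlap. The signs were split, with 14 higher and 12 lower. The median difference of the members was 0.011 on the log2 scale, beside -0.001 over all probe sets, and the median size of a difference regardless of sign was 0.07 in both.

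**Figure D1:**
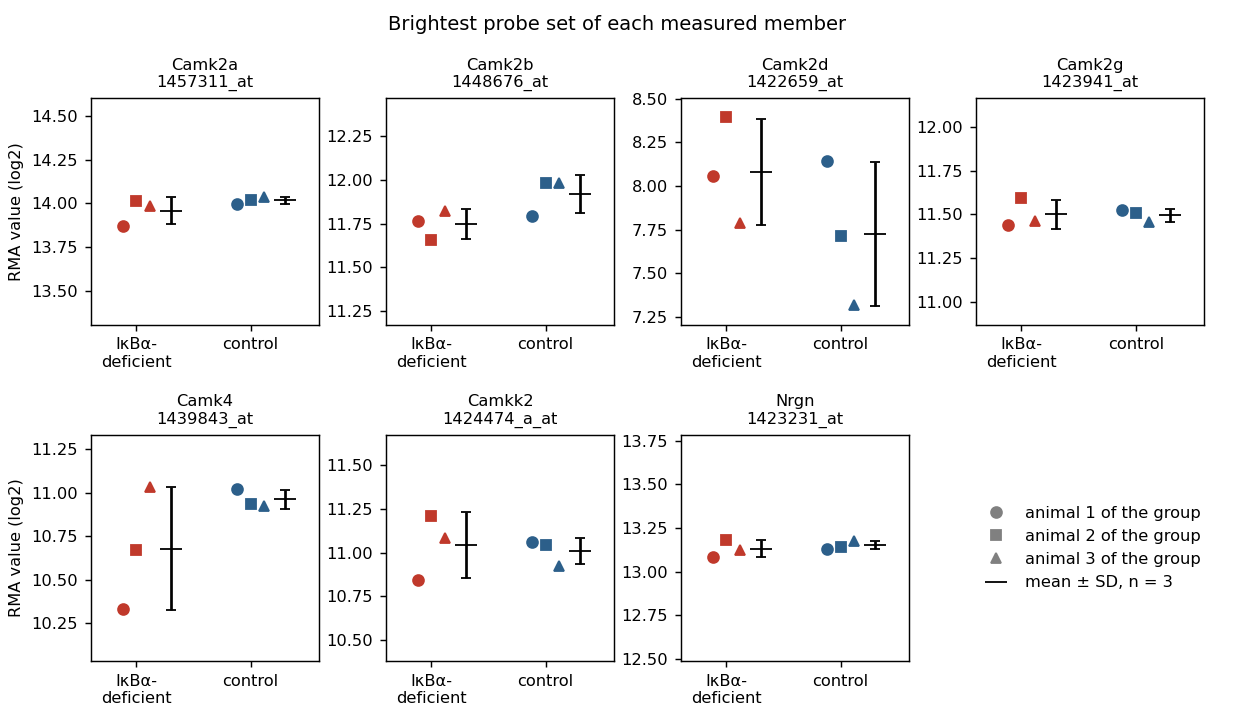
RMA log2 values of the brightest probe set of each of the 7 measured genes, 1 point per animal, IκBα-deficient left and control right, with mean ± SD (n = 3 each). All panels span the same height on the log2 scale; the groups overlap in every panel, Nrgn and Camk2g lie within 0.10 and 0.16 over all 6 arrays, and Camk2d and Camk4 spread over 1.08 and 0.70.

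Neurogranin was the most evenly measured member. Its probe set 1423231_at, brighter than 99.3% of probe sets, read 13.09, 13.18 and 13.12 in IκBα-deficient animals, against 13.13, 13.14 and 13.18 in controls. The 6 animals thus lay within 0.10 of each other, and the groups were interleaved. The difference was -0.02 ± 0.07 (SE), and its 95% interval ran from 1.13-fold lower to 1.10-fold higher. This probe set is near the top of the scale, where arrays can compress differences.

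Among the CaMKII subunits, Camk2a encodes the alpha subunit, the main one of forebrain excitatory neurons. Its brightest probe set, 1457311_at, read 13.87, 14.02 and 13.98 in IκBα-deficient animals, against 13.99, 14.02 and 14.04 in controls. IκBα-deficient animal 1 was the lowest, animal 3 lay just below the controls, and animal 2 lay among them. The difference was -0.06 ± 0.07 (SE), with a 95% interval of -0.23 to 0.11. At 99.9% of the way up the ranking of all probe sets, this probe set is near the top of the scale, where arrays can compress differences.

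All 6 Camk2a probe sets had a negative difference, from -0.35 to -0.05, but their patterns over the arrays differed. Probe set 1437125_at read 11.75, 10.85 and 11.81 in IκBα-deficient animals, against 11.76, 11.80 and 11.89 in controls. Probe set 1442707_at read 8.59, 7.91 and 8.69 in IκBα-deficient animals, against 8.77, 8.63 and 8.82 in controls. In both, a single animal, IκBα-deficient 2, lay below the 5 others, by 0.90 in the first and 0.69 in the second. Probe set 1452453_a_at followed them, with that array at 6.25 and the rest between 6.71 and 7.09, whereas 1457311_at on the same array stood at the control mean. Without IκBα-deficient array 2 the difference of 1437125_at was -0.04 ± 0.07 in place of -0.35 ± 0.24, that of 1442707_at was -0.10 ± 0.09 in place of -0.34 ± 0.19, and that of 1452453_a_at turned to 0.17 ± 0.10. This is the array with the wide 3′ to 5′ gap. With that gap as a covariate, which mostly sets this array apart, the differences were -0.05 ± 0.07 for 1437125_at, -0.10 ± 0.07 for 1442707_at and 0.16 ± 0.11 for 1452453_a_at. The other probe sets, 1443876_at and 1441734_at, differed by -0.06 ± 0.21 and -0.05 ± 0.07.

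Camk2b, the beta subunit that ties the holoenzyme to actin, leaned lower. Its only probe set, 1448676_at, read 11.76, 11.66 and 11.82 in IκBα-deficient animals, against 11.80, 11.98 and 11.98 in controls. Controls 2 and 3 lay above all deficient animals and control 1 lay among them. The difference was -0.17 ± 0.09 (SE) with an unadjusted p of 0.0796 (limma), and the 95% interval of -0.37 to 0.03 reached 0. Without control array 1 it was -0.23 (adjusted p = 1.00, limma), and with the mean of the choroid plexus markers as a covariate it was -0.03 ± 0.12. That mean was itself higher in IκBα-deficient arrays, by 1.86, so a fit with it cannot separate it from genotype, here or below.

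Camk2d, the delta subunit, which is best known from heart muscle, leaned the other way. Probe set 1422659_at read 8.05, 8.39 and 7.79 in IκBα-deficient animals, against 8.14, 7.71 and 7.32 in controls. Probe set 1460630_at read 6.79, 7.08 and 6.61 in IκBα-deficient animals, against 6.80, 6.40 and 6.04 in controls. Both placed the 6 animals in the same order, with IκBα-deficient 2 highest, control 1 next and control 3 lowest, so that control 1 exceeded the other 2 controls and 2 of the deficient animals. The differences were 0.35 ± 0.22 and 0.41 ± 0.20 (SE), with 95% intervals of -0.17 to 0.88 and -0.05 to 0.88. The values also spread within groups. The SD was 0.30 in IκBα-deficient animals and 0.41 in controls for 1422659_at, and 0.24 and 0.38 for 1460630_at. The unadjusted p of 1460630_at was 0.0741 (limma), the smallest of the 26 member probe sets.

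Markers of tissue next to the hippocampus were also higher in IκBα-deficient animals. All 8 of 8 choroid plexus markers were higher in IκBα-deficient animals, with list means of 9.27, 8.66 and 8.37, against 8.45, 6.16 and 6.11 in controls, so control 1 again exceeded the other controls. All 4 of 4 thalamus markers were higher, at 8.75, 8.65 and 8.52 in IκBα-deficient animals, against 8.61, 8.38 and 8.40 in controls. All 6 of 6 meninges markers were higher as well, at 8.41, 8.98 and 8.31 in IκBα-deficient animals, against 8.22, 8.17 and 7.75 in controls. With the choroid plexus mean as a covariate the Camk2d difference turned to -0.14 ± 0.26 for 1422659_at and to -0.03 ± 0.23 for 1460630_at. As this mean itself differed between genotypes, the fit cannot separate it from genotype. The parts of the thalamus and meninges lists were not tested. Without control array 1 the differences were 0.56 ± 0.20 and 0.61 ± 0.17, with an adjusted p of 1.00 for each (limma). They were smaller without control array 3, at 0.15 ± 0.20 and 0.22 ± 0.17, and without IκBα-deficient array 2, at 0.20 ± 0.24 and 0.29 ± 0.21.

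The 5 remaining Camk2d probe sets were dim, each in the lowest 40% of probe sets by mean, where RMA compresses differences. Their differences ran from -0.22 to 0.10, and 4 of the 5 were positive. Camk2g, the gamma subunit, did not show the spread of Camk2d. Probe set 1423941_at read 11.44, 11.60 and 11.46 in IκBα-deficient animals, against 11.52, 11.51 and 11.45 in controls. Its 95% interval ran from -0.17 to 0.18, and that of the second probe set, 1423942_a_at, from -0.20 to 0.13.

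**Figure D2:**
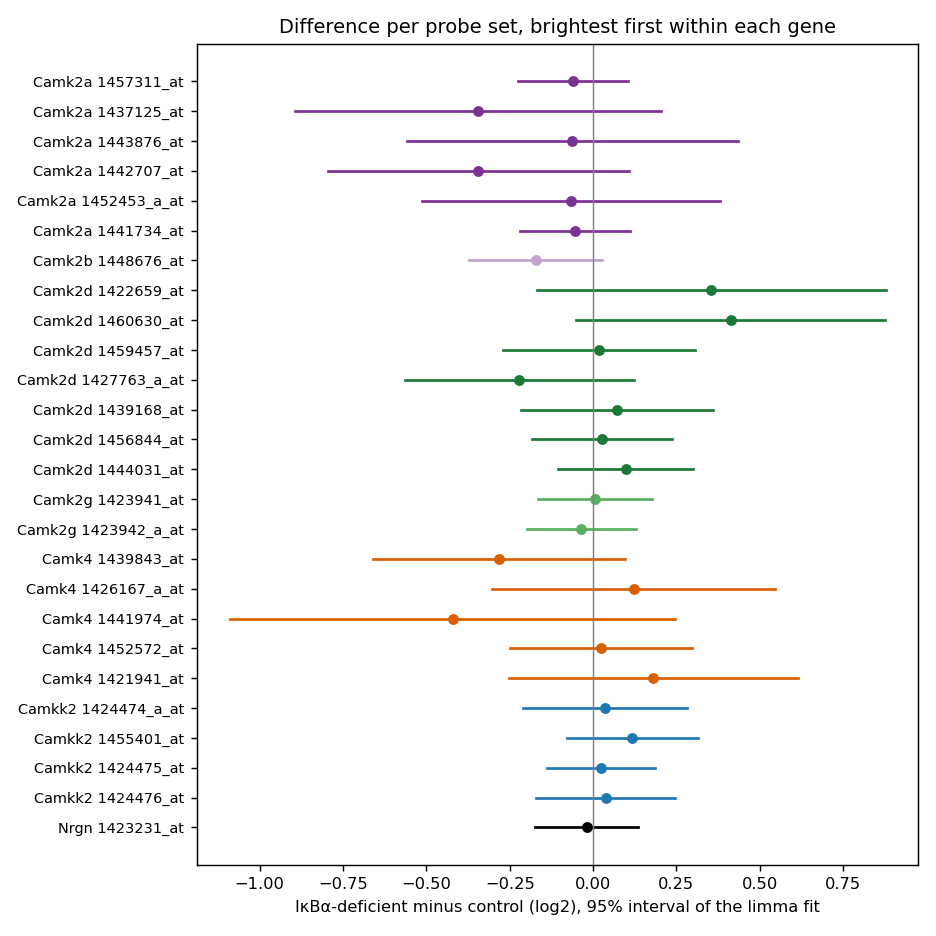
Difference between IκBα-deficient and control arrays (log2) for all 26 probe sets, with the 95% interval of the limma fit (n = 3 arrays per group) and the brightest probe set of each gene first. Every interval includes 0; those of Nrgn, Camk2g, Camkk2 1424475_at and the brightest Camk2a probe set are among the narrow ones, and those of Camk4 1441974_at and Camk2a 1437125_at are wide.

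Camk4 encodes CaMKIV, the nuclear kinase that phosphorylates CREB. Its brightest probe set, 1439843_at, read 10.33, 10.67 and 11.03 in IκBα-deficient animals, against 11.02, 10.94 and 10.93 in controls. The controls agreed within 0.10, while the deficient animals spread over 0.70, with animal 3 just above the highest control. The difference was -0.28 ± 0.16 (SE), with a 95% interval of -0.66 to 0.10 and an SD of 0.35 in IκBα-deficient animals and 0.05 in controls.

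The probe sets of Camk4 did not agree in direction. Probe set 1426167_a_at read 7.41, 7.14 and 6.66 in IκBα-deficient animals, against 7.11, 6.82 and 6.91 in controls. The dim probe set 1421941_at, in the lowest 40% by mean, read 5.63, 5.73 and 4.98 in IκBα-deficient animals, against 5.32, 5.17 and 5.31 in controls. In both, deficient animals 1 and 2 were above every control and animal 3 below every control, the mirror image of 1439843_at, in which animals 1 and 2 were below every control. Probe set 1441974_at had IκBα-deficient animal 2 at 5.06, below the 5 others by 0.81, and differed by -0.42 ± 0.29 (SE). That difference was -0.08 ± 0.17 without IκBα-deficient array 2. The fifth, 1452572_at, differed by 0.02. Of the 5 Camk4 probe sets, 3 thus had a positive and 2 a negative difference.

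Without IκBα-deficient array 3, 1439843_at differed by -0.46 ± 0.12, and 1421941_at by 0.41 ± 0.09 in the opposite direction. Neither passed (adjusted p = 0.837 for both, limma), and the arrays left then included only 2 of the deficient group, with the wide 3′ to 5′ gap on 1 of them. Without IκBα-deficient array 1 the differences were smaller, at -0.11 ± 0.12 for 1439843_at and 0.09 ± 0.21 for 1421941_at. Without IκBα-deficient array 2, 1421941_at differed by 0.04 ± 0.19.

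**Figure D3:**
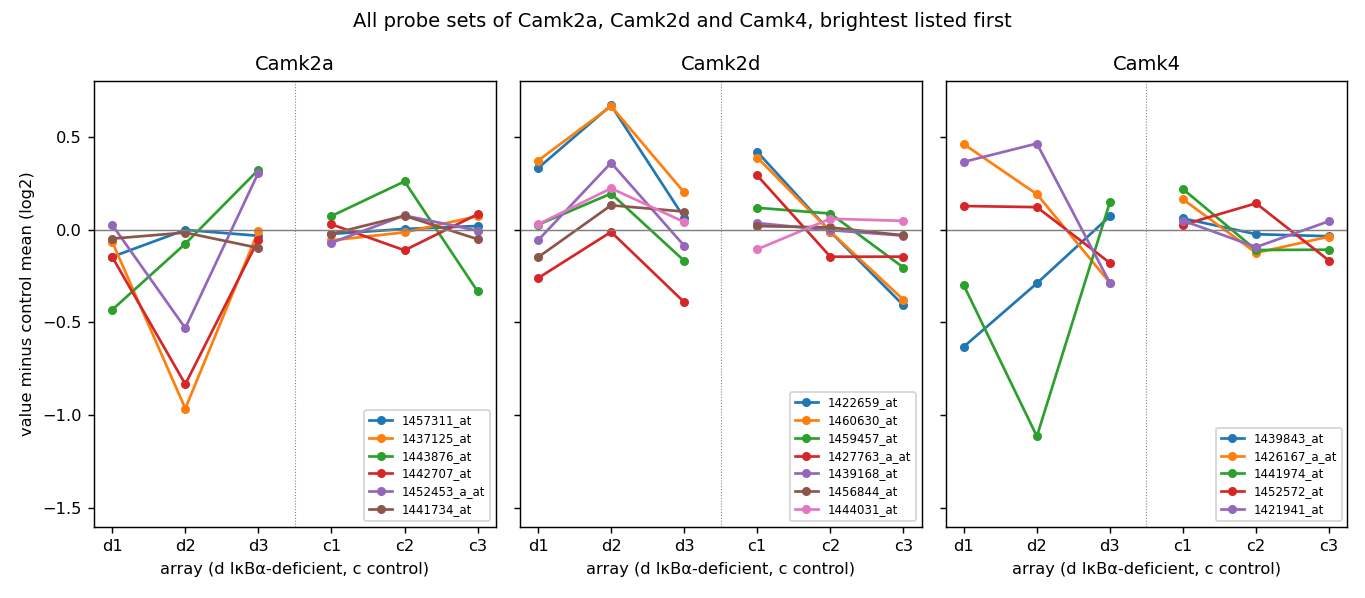
Value minus the control mean (log2) on each array for all probe sets of Camk2a (6), Camk2d (7) and Camk4 (5), with IκBα-deficient arrays d1 to d3 left of control arrays c1 to c3; lines only join the values of a probe set. Camk2a 1437125_at and Camk4 1441974_at drop to -0.96 and -1.11 on d2, the 2 brightest Camk2d probe sets rise together on d2 and c1, and Camk4 1439843_at and 1421941_at run opposite to each other on the d arrays.

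Camkk2, the kinase that activates CaMKIV and the energy sensor AMPK, was nearly level between genotypes. Probe set 1424474_a_at read 10.84, 11.21 and 11.08 in IκBα-deficient animals, against 11.06, 11.04 and 10.92 in controls. The deficient animals held both the lowest and the highest value. All 4 probe sets had a positive difference, from 0.02 to 0.12, and the 95% interval of 1424474_a_at was -0.21 to 0.28. The narrowest was that of 1424475_at, which differed by 0.02 ± 0.07 (SE).

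By the median SD, spread within the deficient group was wider than in controls for these genes, though not for every probe set. The SD was larger in controls for Camk2b, for Camk2d 1422659_at, 1460630_at and 1427763_a_at, for Camk2a 1441734_at and for Camkk2 1424476_at. The median SD of the 26 probe sets was 0.18 in IκBα-deficient arrays and 0.08 in control arrays, beside 0.12 and 0.09 over all probe sets. IκBα-deficient array 2 was the lowest or highest of the 6 arrays for 18 of the 26, or 69.2%, beside 46.1% of all probe sets. Control arrays 1 and 2 were the lowest or highest for 5 and 4 of the 26, or 19.2% and 15.4%, beside 23% and 27% of all probe sets. For IκBα-deficient arrays 1 and 3 and control array 3 the shares were 30.8%, 38.5% and 26.9%, beside 32.5%, 33.5% and 38%.

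The other genes of the pathway were counted from a list of 55 genes in 10 roles, of which 49 had a probe set, 119 in all. None passed over all probe sets (0 higher and 0 lower, limma), and 2 were higher and 0 lower at an unadjusted p under 0.05, against 2.15% and 1.19% of all probe sets. By sign, 37 were higher and 82 lower, with a median difference of -0.05 on the log2 scale beside -0.001 over all probe sets. Genes with several probe sets count more than once here. With 1 probe set a gene, 16 were higher and 33 lower, with a median of -0.03 beside 0.006 over all such probe sets. Without IκBα-deficient array 2, 42 were higher and 77 lower, with a median of -0.03 beside -0.007. The groups did not overlap for 8 of the 119, with 2 above and 6 below, against 4.76% above and 3.68% below over all probe sets.

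Calml4, a calmodulin-like protein, read 8.46, 7.47 and 7.41 in IκBα-deficient animals, against 7.36, 5.76 and 6.27 in controls. It was higher by 1.31 ± 0.43 (SE) with an unadjusted p of 0.0164 and did not pass (adjusted p = 0.9999, limma). The choroid plexus markers ranked the arrays almost alike, and with their mean as a covariate the Calml4 difference was 0.11 ± 0.31. The other probe set with an unadjusted p under 0.05 was a dim one of Pde1c, a calmodulin-activated phosphodiesterase, 1444386_at, higher by 0.26, while the 6 probe sets of Pde1c together ran from -0.12 to 0.26.

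The IQ-motif proteins related to neurogranin were lower in sign in 3 of 3 cases. Gap43, the growth-cone protein that shares neurogranin's calmodulin-binding motif, read 11.40, 10.57 and 11.50 in IκBα-deficient animals, against 11.49, 11.14 and 11.37 in controls. As with 3 of the Camk2a probe sets, the low value was that of IκBα-deficient array 2. Without that array all 3 were higher in sign, with Gap43 at 0.12 ± 0.11, Pcp4 at 0.02 ± 0.08 and Pcp4l1 at 0.28 ± 0.15. Of 23 probe sets of other kinases of the family, 5 were higher and 18 lower, with a median of -0.07. In Camk1d, a CaMKI isoform that CaMKK activates, the difference was -0.11 ± 0.07.

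Camk2n1, an inhibitor protein of CaMKII, read 13.95, 13.82 and 13.96 in IκBα-deficient animals, against 14.01, 13.96 and 14.02 in controls. The groups did not overlap but the difference was only -0.08 ± 0.07 (SE), and 3.68% of all probe sets lay wholly below the controls. Without IκBα-deficient array 2 the difference was -0.04 ± 0.07. Camk2n2, the second inhibitor, differed by 0.04, and by -0.001 without that array. Among phosphatases, 5 of 10 probe sets were higher and 5 lower. Ppp1cb, a catalytic subunit of protein phosphatase 1, had the smallest p of that role and differed by 0.18 ± 0.11.

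Calcineurin and its regulators gave 6 higher and 10 lower of 16 probe sets, with Ppp3cc, a catalytic subunit, at -0.14 ± 0.13, and at -0.01 without control array 3. The calmodulin-regulated cyclases and phosphodiesterases gave 8 higher and 4 lower of 12, with Pde1b at -0.13 ± 0.07. Nuclear targets of the kinases, which include Creb1 and its coactivators, gave 4 higher and 16 lower of 20. The smallest p there belonged to the CREB coactivator Crtc2, at -0.14 ± 0.09, and at -0.01 with the choroid plexus covariate. The Crtc2 difference was -0.21 ± 0.08 without IκBα-deficient array 2 and -0.20 ± 0.08 with the 3′ to 5′ covariate. Of 6 probe sets for AMPK and the kinase upstream of it, 3 were higher and 3 lower, and the AMPK subunit Prkaa2 differed by 0.16 ± 0.08.

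Synaptic partners and substrates of CaMKII were lower in sign in 21 of 25 probe sets, with a median of -0.09, and 0 of the 25 passed. With 1 probe set a gene, 7 of 9 were lower, with a median of -0.02. Without IκBα-deficient array 2 the count was 19 of 25 with a median of -0.03, and with the choroid plexus covariate 14 of 25 with a median of -0.02. Syn1, a synaptic vesicle protein that CaMKII phosphorylates, read 11.31, 11.17 and 11.34 in IκBα-deficient animals, against 11.43, 11.40 and 11.39 in controls, a difference of -0.14 ± 0.07. Without IκBα-deficient array 2 the Syn1 difference was -0.08 ± 0.07. Of the probe sets of Dlg4, the scaffold PSD-95, 1419581_at read 9.33 on IκBα-deficient array 2 beside 9.89 to 9.96 on the other arrays. Its other probe sets, 1419580_at and 1460261_at, differed by -0.02 and -0.08, and by 0.01 and -0.06 without that array.

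**Figure D4:**
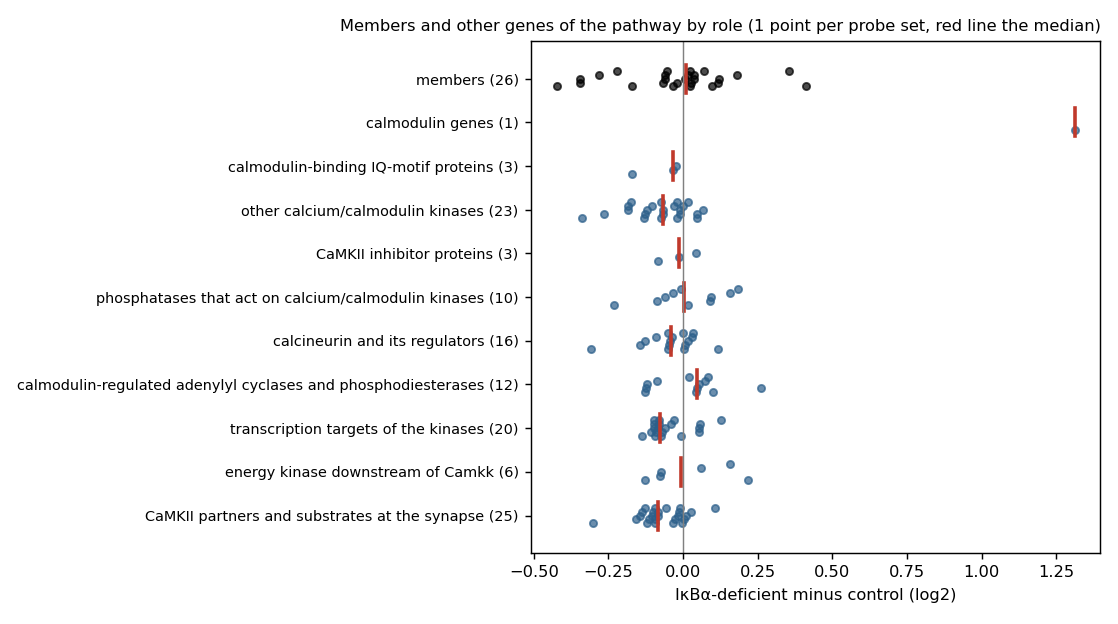
Difference between IκBα-deficient and control arrays (log2) for the 26 member probe sets (black) and for 119 probe sets of other pathway genes by role (blue), with the median of each role as a red line. Most points lie within 0.35 of 0, and the point at 1.31 is Calml4. The synaptic partners sit to the left with a median of -0.09 over probe sets, and -0.02 with 1 probe set a gene.

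Genes whose pattern was most like that of a member were found by the root mean square difference of values centred on each probe set's mean over the 6 arrays, among 13356 other genes in the upper 60% by mean. For Nrgn these were Zfp809, Cpxm1 and Ttll11, at 0.010 to 0.012 on the log2 scale, where the median gene was at 0.087. For Camk2a 1457311_at they were Slitrk5, Ccdc97 and Btaf1, at 0.010 to 0.014 with a median gene at 0.098. For Camk2b they were Clk1, Acin1 and Rasl10b, at 0.016 to 0.027 with a median gene at 0.149. The match takes in all 6 arrays, so a like difference between groups follows from the choice. The Camk2b-like genes stood at -0.20 for Clk1, -0.14 for Acin1 and -0.14 for Rasl10b. With 6 arrays and this many genes, close matches arise easily, and the likeness is a description only.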

How the data were processed

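The deposited table holds log2 values of 45101 probe sets on 6 arrays. Per the submitters' processing notes the authors made these log2 values with RMA, which corrects background, quantile normalizes and summarises probes, so a shift common to most genes cannot be seen. For RMA no version, and for the genome no build, is given in the sources used here. Precision is limited by the number of arrays. The platform annotation from GEO may be out of date and gave 34945 probe sets 1 symbol, 932 several and 9160 none.

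After leaving out 64 control probe sets, the remaining 45037 were fitted in R 4.3.3 with genotype as the single term (limma 3.58.1, lmFit then eBayes, two-sided tests) and adjusted by Benjamini-Hochberg. Scripts were tested on simulated data. A gene's brightest probe set has the highest mean over the 6 arrays. The text names every member, the targeted gene, and in each pathway role the genes whose brightest probe set had an unadjusted p under 0.05, otherwise the gene with the smallest p. The dim Pde1c probe set, Camk2n2, Pcp4, Pcp4l1 and Dlg4 were named after their values were seen. The members and lists were chosen with earlier results of these data known. Labels call the arrays biological repeats. As alternatives, single arrays were left out, the repeat number was used as a block, and other normalizations, filters, probe set choices and variance models were tried, with covariates for choroid plexus markers and for the 3′ to 5′ gap. Promoters are RefSeq sequences, matched by symbol for 5 of 8 members. Figures were drawn with matplotlib 3.10.9.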

Additional observations from a re-analysis of the deposited data

How the results depend on the processing

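Under all 19 alternatives, 0 member probe sets were called in either direction, as with limma on all arrays, and pathway probe sets were likewise never called. At an unadjusted p under 0.05 the members did not always give 0. Without IκBα-deficient array 3, 2 were higher and 3 lower, beside 5.19% of all probe sets. Without control array 1, 2 were higher and 1 lower, beside 2.87%. The block gave 1 higher and 1 lower, and a variance model with a trend and the choroid plexus covariate 1 lower each. Leaving out control 1 and IκBα-deficient 2 gave 1 higher, and the other alternatives 0. Over all probe sets, the 3 lower calls became 1 with shared-transcript probe sets left out and 1 with the 3′ to 5′ covariate. They became 0 with 1 probe set a gene, 0 without moderation, 0 with the choroid plexus covariate, and 0 without control 1 and IκBα-deficient 2 together, a choice made after seeing the data. Leaving out 1 array gave 0 to 6 higher calls, with the 6 when control array 1 was left out, and 1 to 4 lower calls. Among single members, the Camk2d difference turned to -0.14 with the choroid plexus covariate. Camk2g turned to -0.029 with array weights, -0.014 with the choroid plexus covariate, -0.043 with the 3′ to 5′ covariate and -0.029 without both arrays. Camkk2 turned to -0.042 with array weights, -0.047 with the 3′ to 5′ covariate and -0.023 without both arrays. Nrgn turned to 0.012 with the choroid plexus covariate. With 1 array left out, Camk2g ran from -0.043 to 0.035, Camkk2 from -0.048 to 0.138 and Nrgn from -0.046 to 0.0027. The cause was not tested. The differences of the brightest Camk2a, Camk2b and Camk4 probe sets kept their sign under every alternative run. Some alternatives, such as the block, the probe set filters and the fit without moderation, cannot change a difference. With 1 array left out, Camk2a ran from -0.09 to -0.02 and Camk2b from -0.23 to -0.13. In the same fits Camk4 ran from -0.46 to -0.11 and Camk2d from 0.15 to 0.56. Over the 26 probe sets, 14 higher and 12 lower became 9 and 17 both without IκBα-deficient array 2 and with the 3′ to 5′ covariate.

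Repeat numbers do not pair the samples as far as the labels say, and deviations of same-numbered arrays correlated at -0.004, 0.273 and 0.033 across probe sets. Those of differently numbered arrays correlated at -0.332 to 0.291. With the repeat number as a block, 0 member probe sets were called. Over all probe sets, 2 lower and 0 higher calls were left. All 7 differences stayed as they were, which is fixed in advance, as each repeat number holds an array of each genotype. The 7 member probe sets in the lowest 40% by mean are those where low signal limits what can be seen.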

Other observations

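The low values of IκBα-deficient array 2 were not spread evenly over the genes described. With a gap of at least 0.4 on the log2 scale to the nearest other array, a limit chosen after seeing the values, that array lay alone below the others for 4 of the 26 member probe sets (15.4%), for 9 of the 119 pathway probe sets (7.56%) and for 2.75% of all probe sets. None of the other 5 arrays lay alone below the rest for a member probe set. The 4 were 3 probe sets of Camk2a and 1 of Camk4, while the other probe sets of both genes did not show it. The 9 pathway probe sets belong to Camk1, Pnck, Dapk1 and Dclk1, kinases of the family, to Gap43 and Pcp4l1, which bind calmodulin, to the phosphatase subunit Ppp1cc, and to Cacng8, an AMPA receptor auxiliary subunit, and Dlg4, the scaffold PSD-95. Camk1 1417604_at was lower there by 0.79 and its second probe set, 1417605_s_at, read 8.34 on that array, where the other deficient animals had 8.34 and 8.44. The widest gap, 0.90, was in Camk2a 1437125_at.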
